A study of Mus musculus with 9 samples.

Results

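The genes described here are those of the insulin-like growth factor (IGF) axis in mouse skeletal tissue: the ligand gene Igf1, its receptor gene Igf1r and 6 IGF binding protein genes, Igfbp2, Igfbp3, Igfbp4, Igfbp5, Igfbp6 and Igfbp7. They were taken by symbol from the table of raw read counts, which held all 8 among its 43472 genes; Igf2 was left out by the rule. Of the 8, 7 passed the filter on low counts and were tested with 14257 genes in all; Igfbp6 did not pass and is given as reads. The libraries were RNA-seq libraries of C57BL/6J mice, 3 of bone (Bone, labelled osteoblasts), 3 of mature cartilage (MatC, labelled mature chondrocytes) and 3 of immature cartilage (ImC, labelled immature chondrocytes). No genotype, treatment, age, anatomical site or pooling of animals was given in the sources used here. Bone was compared with each cartilage, and MatC with ImC as the later stage of cartilage maturation.

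IGF1 is a secreted growth factor made in the liver under growth hormone and also locally in the skeleton, where it promotes growth plate elongation and bone formation. It acts through the receptor tyrosine kinase encoded by Igf1r, which signals through adaptor proteins to phosphoinositide 3-kinase (PI3K), Akt and mTOR. The binding proteins hold IGFs outside the cell, where they can store them, carry them or keep them from the receptor, and proteases release the ligand by cutting them.

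Total counts ran from 7913684 to 23159547 per library. Mitochondrially encoded genes took 7.24% to 8.91% of the counts in Bone, 33.7% to 82.3% in MatC and 32% to 55.0% in ImC. MatC replicate 3 stood apart, with the highest mitochondrial share and reads on 14940 genes, where no other library had fewer than 17535; 1 read there equalled 0.283 counts per 1000000 (CPM), against at most 0.0856 CPM elsewhere. Summed osteoblast markers stood at 88998 to 105990 CPM in Bone, 1917 to 29291 CPM in MatC and 971 to 2185 CPM in ImC. Summed immature chondrocyte markers stood at 3170 to 3783, 13406 to 31050 and 19605 to 27291 CPM in the same order of groups, and summed hypertrophic chondrocyte markers at 18443 to 23776, 5649 to 14383 and 192 to 749 CPM, with Foxa2 at 0 in Bone; Alpl and Ibsp are on both the osteoblast and the hypertrophic list. CPM below are scaled by the TMM method (trimmed mean of M values). Fold changes and adjusted p-values come from edgeR's quasi-likelihood test over all 14257 genes. Genes with an adjusted p under 0.05 are called. Although the hypertrophic sum was highest in Bone, 6 of the 12 markers were called lower and 0 higher in Bone relative to MatC. Their median log2 fold change was -1.69, and 4.69% of all genes were called lower and 1.36% higher. Relative to ImC, 7 of the 12 were called higher and 3 lower in Bone, beside 14.3% and 16.8% of all genes. Whether the 3 libraries of a group are separate animals is not given in the sources used here, and p-values measure only their spread, which may be technical. Markers of erythroid cells summed to 6439 to 9212 CPM in Bone, 874 to 3505 CPM in MatC and 9.75 to 1424 CPM in ImC, and those of skeletal muscle to 8.48 to 95.1, 36.0 to 355 and 9.78 to 29.3 CPM. Tissues were sequenced in bulk, so fewer cells of a type and less RNA per cell cannot be told apart.

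The promoters of 3 members are shown because these genes set the tissues apart: Igfbp3 was higher and Igf1r and Igfbp7 were lower in Bone than in ImC. Each run is the 250 bases before the RefSeq start site (GRCm38.p6), 5′ to 3′ on the gene's strand, at chr11:7213924-7214173 on the minus strand for Igfbp3, chr7:67952007-67952256 on the plus strand for Igf1r and chr5:77408046-77408295 on the minus strand for Igfbp7. Capitals mark matches, on either strand, to the RUNX core TGTGGT, the TATA motif TATANA and the GC box GGGCGG; matches may overlap.
Igfbp3: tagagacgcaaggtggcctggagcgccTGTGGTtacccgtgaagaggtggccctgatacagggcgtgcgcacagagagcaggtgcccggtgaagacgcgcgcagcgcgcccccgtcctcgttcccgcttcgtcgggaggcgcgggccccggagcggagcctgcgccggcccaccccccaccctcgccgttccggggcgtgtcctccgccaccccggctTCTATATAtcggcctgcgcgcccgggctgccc
Igf1r: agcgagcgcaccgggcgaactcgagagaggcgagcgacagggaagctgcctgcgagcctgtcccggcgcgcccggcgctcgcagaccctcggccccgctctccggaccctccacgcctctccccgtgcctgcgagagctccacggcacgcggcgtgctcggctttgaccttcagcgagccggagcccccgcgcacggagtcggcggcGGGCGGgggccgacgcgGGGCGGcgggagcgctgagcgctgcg
Igfbp7: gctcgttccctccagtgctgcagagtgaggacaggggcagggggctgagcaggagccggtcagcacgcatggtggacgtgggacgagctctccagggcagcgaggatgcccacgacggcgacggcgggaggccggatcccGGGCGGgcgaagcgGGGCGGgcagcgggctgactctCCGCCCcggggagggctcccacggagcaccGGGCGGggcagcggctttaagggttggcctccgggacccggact
The Igfbp3 promoter held overlapping TATA matches starting 32 and 30 bases upstream of the start and a RUNX core 223 bases upstream. The Igf1r promoter held 2 GC boxes and the Igfbp7 promoter 4, and neither held a TATA or RUNX match. Of 32851 RefSeq mouse promoter windows of this length, 22.6% held the TATA motif, 14.1% the RUNX core and 32.7% the GC box. GC content was 73.2% in the Igfbp3 window, 77.6% in the Igf1r window and 74.0% in the Igfbp7 window, against a median of 52.4% over all windows. A motif match describes these letters and is not evidence of a bound factor. The Igf1 window was not printed because it lies inside an annotated Igf1 exon.

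**Figure D1:**
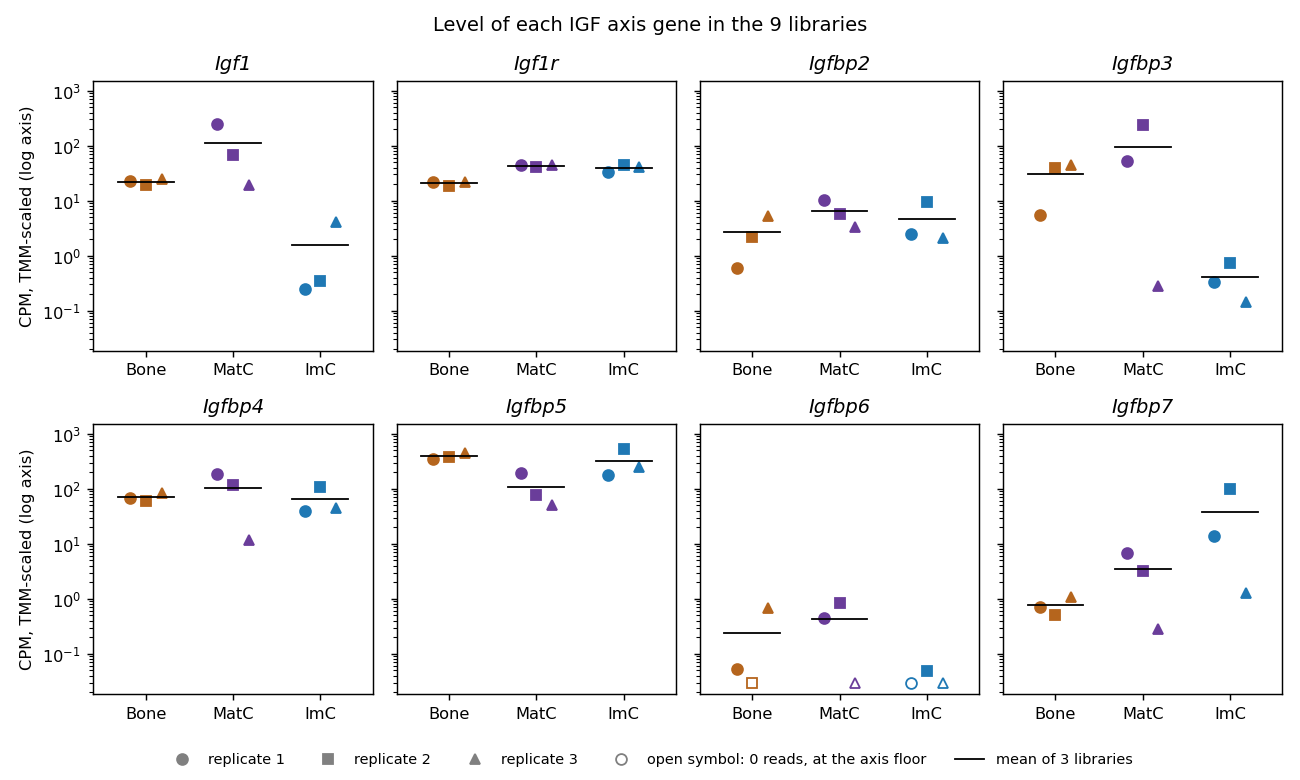
TMM-scaled CPM (log axis) of each IGF axis gene in the 9 libraries, with Bone, MatC and ImC from left to right, 1 symbol per library and a line at the mean of 3. Igf1 and Igfbp3 averaged 1.55 and 0.407 CPM in ImC and more in the other groups, Igf1r was close to level within each group, and MatC replicate 3 was the lowest MatC library for 7 of the 8 genes.

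Igf1 transcripts were scarce in immature cartilage and higher in every library of mature cartilage and of bone. Igf1 (chromosome 10, 87858265 to 87937042, plus strand, GENCODE M21 on GRCm38) had 22.6, 19.0 and 24.9 CPM in Bone, 245.7, 69.2 and 19.0 CPM in MatC, and 0.250, 0.347 and 4.06 CPM in ImC. The ImC values rested on 3, 7 and 57 reads. Igf1 exons overlap the antisense gene Igf1os, and reads of the pair cannot be told apart there. Every Bone and every MatC library stood above every ImC library, while Bone lay within the range of MatC. The Bone libraries agreed within 1.31-fold, whereas the MatC libraries spanned 13.0-fold and the ImC libraries 16.2-fold. Igf1 rose by 6.18 ± 1.18 on the log2 scale in MatC relative to ImC (SE, adjusted p = 0.0153). It rose by 3.84 ± 1.08 in Bone relative to ImC (adjusted p = 0.0226). Between Bone and MatC the log2 fold change was -2.33 ± 0.97 (adjusted p = 0.187), and the gene was not called. In order of mean level MatC stood first, Bone second and ImC last, and the ranges of MatC and Bone overlapped.

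The size of the Igf1 difference depended on single libraries. For MatC against ImC the log2 fold change was 4.85 without MatC replicate 1 and 8.47 without ImC replicate 3, and it was no longer called without ImC replicate 1 (5.68, adjusted p = 0.0551) or with only the MatC and ImC libraries in the fit (6.19, adjusted p = 0.0662). For Bone against ImC it was 6.14 without ImC replicate 3, and it was no longer called without ImC replicate 1 (3.39, adjusted p = 0.0638) or without Bone replicate 1, 2 or 3 (3.85, 3.97 and 3.77; adjusted p = 0.0513, 0.0524 and 0.055). For Bone against MatC it was -0.99 without MatC replicate 1 (adjusted p = 0.514), and it was called without replicate 3 of both MatC and ImC (-2.81, adjusted p = 0.00757) and with no filter on low counts (-2.28, adjusted p = 0.0246).

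Macrophages are a source of Igf1 in many tissues, and so are fibroblasts, so their marker levels are given beside it. The macrophage and leukocyte list holds 14 genes, of which 13 had a read in Bone and in MatC and 9 in ImC; it summed to 60.1 to 147 CPM in Bone, 28.3 to 121 CPM in MatC and 11.8 to 32.1 CPM in ImC, with C1qa, C1qb, Aif1 and Mrc1 at 0 in ImC. In MatC replicate 1, where Igf1 was highest, this sum was 32.4 CPM, next to the 32.1 CPM of ImC replicate 3. The perichondrium and fibroblast list, with 14 of 14 genes read in Bone and in MatC and 12 in ImC, summed to 1101 to 1893, 1157 to 2606 and 144 to 780.0 CPM in Bone, MatC and ImC, with Tnmd and Dpt at 0 in ImC. The highest sum, 2606 CPM, was that of MatC replicate 1. Among the ImC libraries the lowest sum, 144 CPM, was that of replicate 3, where Igf1 was highest. Among the Bone libraries the highest sum, 1893 CPM, was that of replicate 2, where Igf1 was lowest. The part of these cells in the Igf1 difference was not tested.

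The receptor gene was lower in bone than in either cartilage and varied far less between libraries. Igf1r (chromosome 7, 67952827 to 68233668, plus strand) had 21.8, 18.5 and 22.1 CPM in Bone, 44.3, 40.4 and 45.3 CPM in MatC, and 33.2, 44.9 and 40.3 CPM in ImC. Every Bone library stood below every cartilage library, and the cartilage groups overlapped. Igf1r fell by 1.06 ± 0.24 on the log2 scale in Bone relative to MatC (SE, adjusted p = 0.0289). It fell by 0.92 ± 0.23 in Bone relative to ImC (adjusted p = 0.0151). For MatC against ImC the log2 fold change was 0.13 ± 0.23 (adjusted p = 0.765). With library size in place of TMM factors, a setting that moved the median of all genes to 0.95 for Bone against MatC and 0.46 for Bone against ImC, the Igf1r values were -0.05 and -0.44 (adjusted p = 0.952 and 0.617). Both values lay below that median.

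Both Igf1r calls lay near the threshold. For Bone against MatC the call ended without Bone replicate 1, 2 or 3 (-1.08, -0.96 and -1.09; adjusted p = 0.131, 0.168 and 0.127), MatC replicate 1 or 3 (-1.02 and -1.0; 0.0531 and 0.0614), or ImC replicate 1 (-1.01; 0.0588). It also ended with the replicate block (-1.06; 0.0551) and with no filter on low counts (-0.97; 0.101). For Bone against ImC it ended without Bone replicate 1, 2 or 3 (-0.94, -0.82 and -0.95; 0.0583, 0.084 and 0.0634) and with no filter (-0.85; 0.0858).

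Among the binding proteins, Igfbp3 had the largest fold changes relative to ImC, in both Bone and MatC. It encodes the main carrier of IGFs in blood and is also made locally in tissues. Igfbp3 (chromosome 11, 7206086 to 7213923, minus strand) had 5.52, 39.7 and 45.5 CPM in Bone, 51.9, 238 and 0.283 CPM in MatC, and 0.333, 0.745 and 0.142 CPM in ImC. The value of MatC replicate 3 was 1 read and lay within the range of ImC, whose libraries held 4, 15 and 2 reads. Every Bone library stood above every ImC library, and the MatC group overlapped both others. Igfbp3 rose by 7.79 ± 1.74 on the log2 scale in MatC relative to ImC (SE, adjusted p = 0.0274). It rose by 6.10 ± 1.64 in Bone relative to ImC (adjusted p = 0.019). For Bone against MatC the log2 fold change was -1.69 ± 1.26 (adjusted p = 0.473), and it was 0.18 without MatC replicate 2, the library with the highest level.

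The Igfbp3 calls also turned on single libraries and settings. For MatC against ImC the call ended without MatC replicate 2 (5.94, adjusted p = 0.0626), Bone replicate 2 (7.80, 0.0517) or ImC replicate 1, 2 or 3 (7.62, 8.66 and 7.40; 0.0927, 0.0597 and 0.0598). It ended as well with limma-voom (6.61, adjusted p = 0.232), with library size only (7.17, 0.0552) and with only these groups (7.80, 0.0752). For Bone against ImC it ended without Bone replicate 2 (5.89, 0.051) or ImC replicate 1 or 3 (6.03 and 5.72; 0.0589 and 0.0556) and with limma-voom (5.77, 0.179), and the value was 6.97 without ImC replicate 2.

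The genes whose levels were most like those of Igfbp3 over the 9 libraries were Flt1, a receptor for vascular endothelial growth factor, and Aplnr, the apelin receptor, both known from endothelial cells. Pearson's r of log2 CPM was 0.978 for Flt1 and 0.962 for Aplnr, the highest of 7444 genes averaging at least 10 CPM; all points share library, depth and tissue. Flt1 had 6.61, 15.5 and 21.3 CPM in Bone, 12.1, 44.7 and 0.566 CPM in MatC, and 0.250, 0.943 and 0.0712 CPM in ImC. Aplnr had 7.90, 21.6 and 26.2 CPM in Bone, 11.8, 36.2 and 0 CPM in MatC, and 0 CPM in every ImC library. Both were picked for their likeness to Igfbp3, so their levels describe that choice. The 14 endothelial markers, Flt1 among them, summed to 69.0, 188 and 198 CPM in Bone, 144.5, 367 and 123 CPM in MatC, and 16.4, 29.1 and 34.0 CPM in ImC; all 14 had a read in Bone and in MatC and 12 in ImC, where Sox17 and Robo4 were at 0. In MatC replicate 3, with 1 read of Igfbp3, 11 of the 14 had a read, and Tie1, Sox17 and Robo4 were at 0. Osteoclast markers summed to 503, 1118 and 1067 CPM in Bone, 111, 642 and 66.5 CPM in MatC, and 8.25, 6.75 and 8.97 CPM in ImC, where Calcr and Dcstamp were at 0; all 10 had a read in Bone and in MatC and 8 in ImC. The macrophage and leukocyte sums given above were also lowest among the Bone libraries in replicate 1 and highest among the MatC libraries in replicate 2. Summed osteoblast and erythroid markers were also highest in MatC replicate 2 (29291 and 3505 CPM) and lowest in MatC replicate 3 (1917 and 874 CPM). Among the Bone libraries neither sum was lowest in replicate 1 (96340 and 9212 CPM). The part of any of these cell types in the Igfbp3 difference was not tested.

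**Figure D2:**
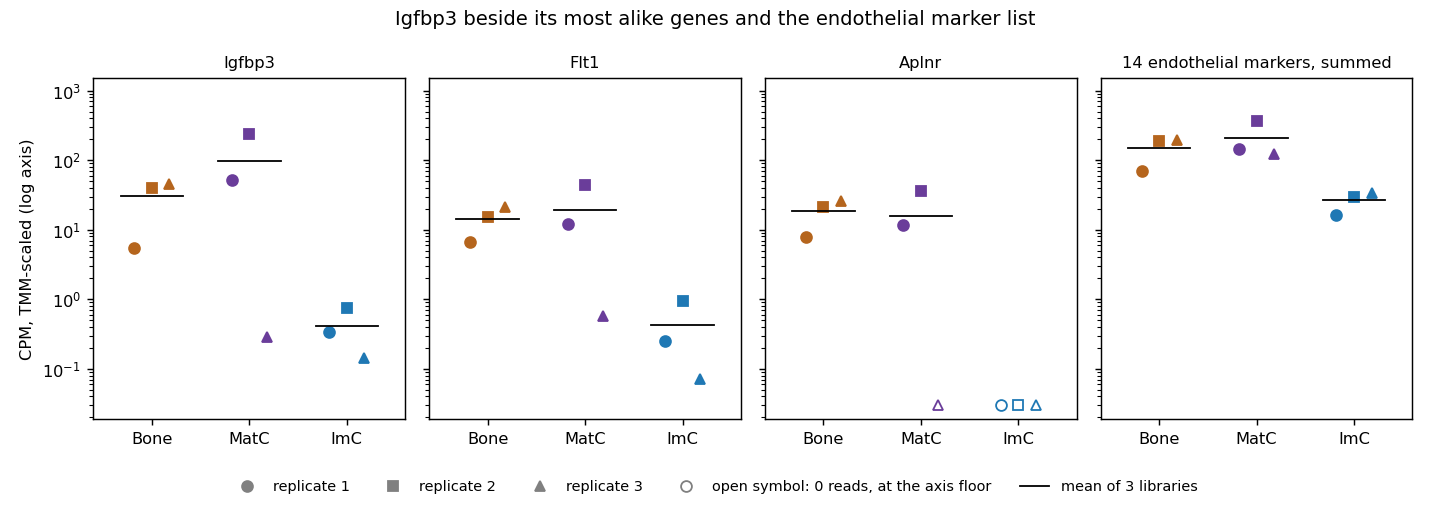
TMM-scaled CPM (log axis) of Igfbp3, of Flt1 and Aplnr, the genes most like it, and of 14 endothelial markers summed, in the 9 libraries with Bone, MatC and ImC from left to right. Igfbp3, Flt1 and Aplnr stood at 0.283, 0.566 and 0 CPM in MatC replicate 3, whereas the summed markers stood at 123 CPM there.

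Igfbp5 was the leading binding protein gene in every library of bone and also in every library of immature cartilage. Its product binds the extracellular matrix as well as IGFs and is abundant in bone. Igfbp5 (chromosome 1, 72857932 to 72874884, minus strand) had 345, 384 and 443 CPM in Bone, 196, 76.5 and 51.2 CPM in MatC, and 179, 524 and 255 CPM in ImC. All Bone libraries exceeded all MatC libraries, while ImC overlapped both. The log2 fold change was 1.85 ± 0.54 for Bone against MatC (SE, adjusted p = 0.0712), -1.56 ± 0.53 for MatC against ImC (adjusted p = 0.103) and 0.29 ± 0.52 for Bone against ImC (adjusted p = 0.701), and none was called. The first of these was called in 6 alternatives: without MatC replicate 1 (2.62, adjusted p = 0.0187), without ImC replicate 2 (1.86, 0.0473), with no filter on low counts (1.91, 0.00737), with DESeq2 (1.87, 0.00724), with limma-voom (2.04, 0.043) and with only these groups (1.87, 0.047). The second was called in 3, without MatC replicate 1 (-2.32, adjusted p = 0.0356), with no filter (-1.56, 0.0314) and with DESeq2 (-1.55, 0.0318), and was -1.0 without ImC replicate 2 (0.248). By mean level the order was Bone, ImC and MatC, and neighbours in it overlapped.

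Igfbp7, whose product binds IGFs only weakly, was lower in bone than in immature cartilage. Igfbp7 (chromosome 5, 77349240 to 77408041, minus strand) had 0.704, 0.514 and 1.07 CPM in Bone, 6.97, 3.17 and 0.283 CPM in MatC, and 13.8, 99.5 and 1.28 CPM in ImC. Every Bone library stood below every ImC library, and MatC overlapped both. The ImC libraries spanned 77.6-fold, with ImC replicate 2 far above the others. Igfbp7 fell by 5.61 ± 1.41 on the log2 scale in Bone relative to ImC (SE, adjusted p = 0.0144). The value was -3.27 without ImC replicate 2 (adjusted p = 0.0476). The call ended without Bone replicate 1 or 2 (-5.53 and -5.40; adjusted p = 0.057 and 0.0652), with the replicate block (-4.20; 0.0578) and with limma-voom (-4.10; 0.154). The log2 fold change was -3.36 ± 1.25 for MatC against ImC (adjusted p = 0.131) and -2.26 ± 1.29 for Bone against MatC (adjusted p = 0.329), and neither was called. The first was -1.05 without ImC replicate 2 (adjusted p = 0.554). It was called without ImC replicate 3 (-3.89, adjusted p = 0.0341), without replicate 3 of both MatC and ImC (-3.47, 0.0294), with no filter on low counts (-3.37, 0.00664) and with DESeq2 (-3.40, 0.0204). Igfbp7 exons overlap the gene Polr2b on the opposite strand, and strand was not kept in these libraries, so reads in the overlap may come from either gene.

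The genes most like Igfbp7 were Atp7a, a copper transporter (r = 0.975), and Cdon, a hedgehog co-receptor (r = 0.967). Cdon had 10.8, 8.13 and 19.3 CPM in Bone, 44.4, 20.6 and 6.22 CPM in MatC, and 58.5, 183 and 28.4 CPM in ImC. Both were picked for their likeness to Igfbp7, so their levels describe that choice.

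Igfbp4 was expressed in every library without a called difference. Its product mostly holds IGFs back from the receptor. Igfbp4 (chromosome 11, 99041244 to 99054392, plus strand) had 69.0, 61.5 and 84.5 CPM in Bone, 188, 115 and 11.9 CPM in MatC, and 39.4, 108 and 45.9 CPM in ImC. The groups overlapped in every comparison, and MatC replicate 3 was the lowest library of all. Log2 fold changes were -0.56 ± 0.73 for Bone against MatC, 0.15 ± 0.73 for Bone against ImC and 0.71 ± 0.73 for MatC against ImC (SE, adjusted p = 0.701, 0.894 and 0.592).

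Igfbp2, a binding protein that can also bind integrins, stood at 10.5 CPM or less in every library, without scaling for its short exons. Igfbp2 (chromosome 1, 72824503 to 72852474, plus strand) lies next to Igfbp5 on the opposite strand. It had 0.596, 2.23 and 5.18 CPM in Bone, 10.5, 5.64 and 3.39 CPM in MatC, and 2.50, 9.38 and 2.14 CPM in ImC. The groups overlapped in every comparison. Log2 fold changes were -1.30 ± 0.82 for Bone against MatC, -0.81 ± 0.81 for Bone against ImC and 0.49 ± 0.81 for MatC against ImC (SE, adjusted p = 0.386, 0.471 and 0.75). The Bone libraries spanned 8.70-fold in Igfbp2 and 8.24-fold in Igfbp3, with replicate 1 lowest in both, but at most 1.37-fold in Igf1, Igf1r, Igfbp4 and Igfbp5.

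Igfbp6, whose product prefers IGF2 to IGF1, was near the limit of detection. Igfbp6 (chromosome 15, 102144362 to 102149511, plus strand) had 1, 0 and 12 reads in Bone, 6, 12 and 0 reads in MatC, and 0, 1 and 0 reads in ImC. Pooled over the libraries of a group, the ratio of MatC to ImC was 26.9 (95% counting interval 4.25 to 1120) and that of Bone to ImC 12.5 (1.88 to 533). The ratio of Bone to MatC was 0.466 (0.21 to 1.01). These intervals cover counting error only, and in each of Bone and MatC at least 1 library held 0 reads. A count of 0 allowed up to 0.257 CPM in Bone replicate 2, 0.849 CPM in MatC replicate 3, and 0.250 and 0.214 CPM in ImC replicates 1 and 3, at a floor of 3 reads.

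**Figure D3:**
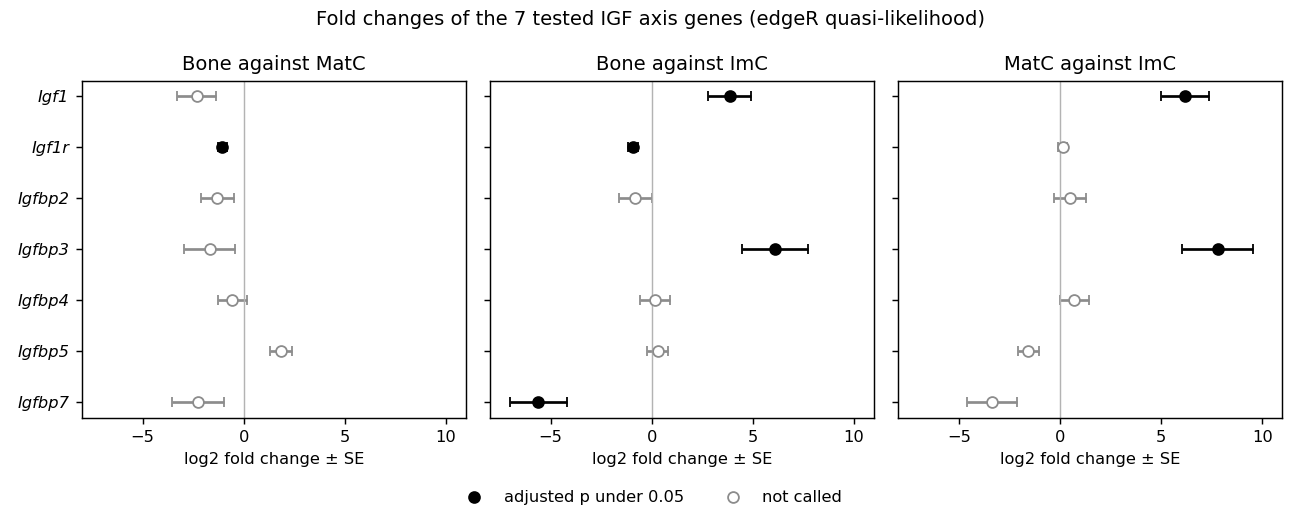
Log2 fold change with its standard error of the 7 tested genes in Bone against MatC, Bone against ImC and MatC against ImC, with filled symbols for an adjusted p under 0.05. Igf1 and Igfbp3 were called higher in both comparisons with ImC, Igf1r lower in both comparisons of Bone, and Igfbp7 lower in Bone than in ImC.

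Set against all genes tested, the members were called as follows. In Bone relative to ImC, 2 of the 7 tested members rose and 2 fell, and 31.1% of all genes were called, 14.3% higher and 16.8% lower. In the same comparison 2 of 7 lay above and 2 below without overlap of the groups, where 59.0% of all genes did not overlap, 30.1% above and 28.8% below. In MatC relative to ImC, 2 of 7 rose and 0 fell, and 7.71% of all genes were called, 5.41% higher and 2.29% lower. For that 0, edgeR had 2 members lower at an unadjusted p under 0.05, DESeq2 called 2 lower and limma-voom 0. There 1 of 7 lay above without overlap, where 23.9% of all genes did not overlap, 11.4% above and 12.5% below. In Bone relative to MatC, 1 of 7 fell and 0 rose, and 6.05% of all genes were called, 4.69% lower and 1.36% higher. For that 0, edgeR had 1 member higher at an unadjusted p under 0.05, and DESeq2 and limma-voom each called 1 higher. There 1 of 7 lay above and 1 below without overlap, where 35.6% of all genes did not overlap, 17.9% above and 17.7% below. The share of members without overlap thus lay at or below that of all genes in each comparison, while the share called lay above it; neither was tested. The median log2 fold change of the 7 members was 0.15 for Bone against ImC, 0.49 for MatC against ImC and -1.30 for Bone against MatC, beside -0.02, 0.03 and -0.03 over all genes tested. Both comparisons with ImC share the ImC libraries, and both comparisons of Bone share the Bone libraries.

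Per exon length, the binding protein that led differed between MatC libraries but not within Bone or ImC. Levels here are TMM-scaled CPM per kilobase of annotated exon; the RNA was amplified with a kit that primes at the poly(A) tail, so they compare genes only roughly. Igfbp5 stood first in all Bone libraries, at 57.4, 64.0 and 73.8 CPM per kb, and in all ImC libraries, at 29.9, 87.3 and 42.5 CPM per kb. In MatC replicate 1 Igfbp4 led with 42.7 CPM per kb, and in MatC replicate 2 Igfbp3 with 76.1. In MatC replicate 3 Igfbp5 led with 8.52. Before division by length Igfbp5 led in MatC replicate 1, with 196 CPM against 188 CPM for Igfbp4. Igfbp7 stood second by mean in ImC, at 31.6 ± 44.2 CPM per kb (SD, n = 3), a mean carried by ImC replicate 2 (82.3); it had 11.4 CPM per kb in ImC replicate 1 and 1.06 in ImC replicate 3, where its rank was 5. It stood seventh of the 8 genes in Bone, at 0.631 ± 0.234. Before division by length the mean of Igfbp7 in ImC, 38.2 CPM, lay below the 64.5 CPM of Igfbp4. Igfbp2 had 1.44 ± 1.26 CPM per kb in Bone, 3.52 ± 1.95 in MatC and 2.53 ± 2.21 in ImC. The ligand gene Igf1 reached 2.24 ± 0.30 CPM per kb in Bone, 11.2 ± 12.0 in MatC and 0.157 ± 0.219 in ImC, and Igf1r 1.24 ± 0.12, 2.58 ± 0.15 and 2.35 ± 0.35.

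**Figure D4:**
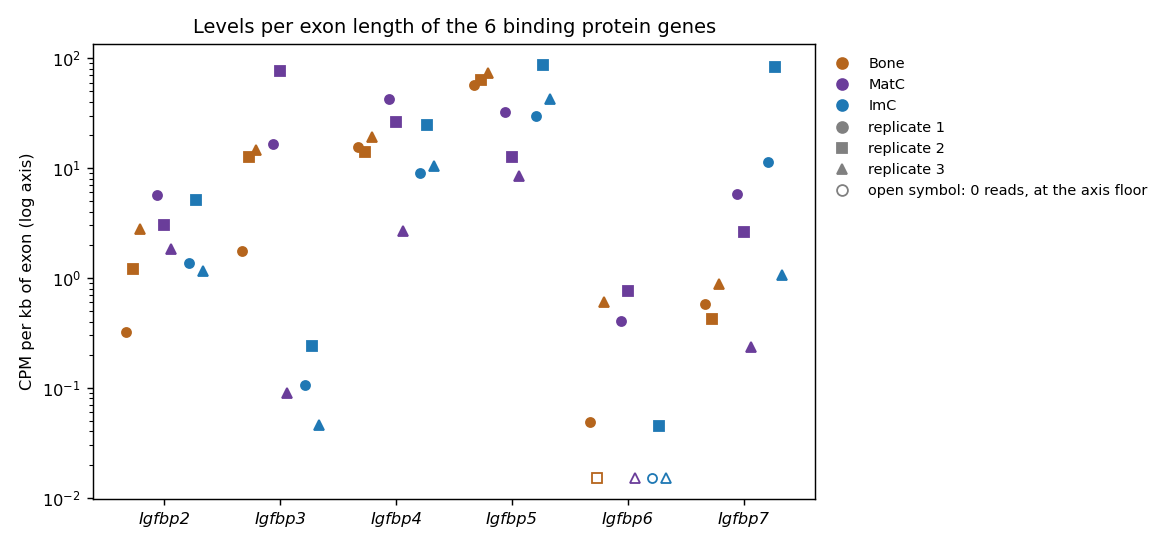
TMM-scaled CPM per kilobase of exon (log axis) of the 6 binding protein genes in each library, with Bone, MatC and ImC from left to right within a gene. Igfbp5 was first in all Bone libraries (57.4 to 73.8 CPM per kb), while Igfbp4, Igfbp3 and Igfbp5 each led in 1 MatC library.

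By the same measure of likeness as for Igfbp3 and Igfbp7, Igf1 was most like Maf, a transcription factor active in hypertrophic chondrocytes (r = 0.949), and Fmo1, a flavin monooxygenase (r = 0.941). Maf had 34.9, 82.8 and 71.2 CPM in Bone, 176, 140 and 148 CPM in MatC, and 1.42, 2.83 and 13.9 CPM in ImC. Igf1r was most like Lrrc8d, a subunit of volume-regulated anion channels (r = 0.972), and Pamr1 (r = 0.965). Lrrc8d had 6.61, 6.42 and 5.07 CPM in Bone, 36.8, 22.8 and 33.4 CPM in MatC, and 17.9, 34.8 and 34.0 CPM in ImC. Igfbp2 was most like Fst, the activin antagonist follistatin (r = 0.888), and Nexn (r = 0.887). Igfbp4 was most like Brox and Armc10 (r = 0.966 and 0.951), and Igfbp5 most like the corepressor Ctbp1 and the deubiquitinase Otulin (r = 0.92 and 0.917). Between members the highest r were those of Igf1 with Igfbp3 (0.733) and of Igfbp3 with Igfbp4 (0.657), and the lowest were those of Igf1 with Igfbp7 (-0.535) and of Igf1r with Igfbp5 (-0.526). These values describe 9 libraries of 3 tissues.

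The genes that act on or below the axis were read from 4 lists with 59 tested genes. In Bone relative to ImC 14 of the 59 rose and 6 fell (33.9% called, against 31.1% of all genes), in MatC relative to ImC 5 rose and 0 fell (8.47% against 7.71%), and in Bone relative to MatC 1 rose and 2 fell (5.08% against 6.05%). By direction, 14.3% of all genes rose and 16.8% fell in Bone relative to ImC, 5.41% rose and 2.29% fell in MatC relative to ImC, and 1.36% rose and 4.69% fell in Bone relative to MatC. For the 0, edgeR had 7 lower at an unadjusted p under 0.05, DESeq2 called 5 and limma-voom 0.

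Of 9 tested genes of the growth hormone axis, which controls Igf1 in liver, 3 rose and 0 fell in Bone relative to ImC. Over all genes 14.3% rose and 16.8% fell there. In MatC relative to ImC 1 rose and 0 fell, beside 5.41% and 2.29% of all genes. The list medians were 0.03 and 0.09 on the log2 scale. At an unadjusted p under 0.05 edgeR had 2 lower in Bone and 3 lower in MatC. DESeq2 called 0 and 2 lower, and limma-voom 0 and 0. Every Bone and MatC library lay below every ImC library for the receptor gene Ghr and for Socs3, and neither was called. The log2 fold changes in Bone and MatC were -0.68 and -0.80 for Ghr, and -1.40 and -1.76 for Socs3. Socs2, a feedback inhibitor of growth hormone signalling, had 32.8, 30.7 and 38.6 CPM in Bone, 29.3, 44.3 and 52.6 CPM in MatC, and 4.25, 3.87 and 7.41 CPM in ImC. Every library of Bone and MatC stood above every ImC library. Socs2 rose by 2.72 ± 0.35 on the log2 scale in Bone and by 3.02 ± 0.36 in MatC relative to ImC (SE, adjusted p = 0.000732 and 0.00242), and both calls held in all alternatives run. The receptor-bound kinase Jak2 rose by 0.98 ± 0.31 in Bone relative to ImC (adjusted p = 0.036). That call ended without Bone replicate 2 or 3 (0.78 and 0.99; 0.144 and 0.0974) or ImC replicate 1 or 2 (1.05 and 0.87; 0.0777 and 0.0911), with the replicate block (0.97; 0.0638) and with library size only (1.5; 0.138). Igfals, the acid-labile subunit that joins IGF and IGFBP3 in blood, was called higher in Bone than in ImC (adjusted p = 0.021), with 12, 7 and 16 reads in Bone and 0, 2 and 0 in ImC, a ratio of 16.9 (95% counting interval 4.33 to 145). Its call ended without any 1 Bone library, without ImC replicate 1 and with no filter on low counts (adjusted p up to 0.0844). Igfbp1 had 3 reads, all in Bone replicate 3.

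Of 9 tested proteases and protease inhibitors that set how much IGF is freed from binding proteins, 4 fell and 1 rose in Bone relative to ImC (median -1.03), 1 rose in MatC relative to ImC (median -0.60) and 1 fell in Bone relative to MatC (median 0.07). Of all genes, 31.1% were called for Bone against ImC, 7.71% for MatC against ImC and 6.05% for Bone against MatC. The pappalysins were low in Bone. Pappa, which cuts IGFBP4, had 2.27, 0.685 and 0.619 CPM in Bone, 14.1, 3.17 and 5.66 CPM in MatC, and 3.75, 22.3 and 3.85 CPM in ImC. Pappa fell by 3.04 ± 0.91 on the log2 scale in Bone relative to ImC (SE, adjusted p = 0.0288), but by 1.64 without ImC replicate 2 (adjusted p = 0.128); the call also ended without Bone replicate 2 or 3 (-2.76 and -2.71; 0.109 and 0.105), with limma-voom (-2.85; 0.0634) and with library size only (-2.74; 0.131). Pappa2, which cuts IGFBP3 and IGFBP5, had 2, 0 and 1 reads in Bone, 16, 31 and 1 in MatC, and 5, 7 and 19 in ImC. Bone was lower than MatC by a ratio of 24.8 (95% counting interval 7.99 to 124) and lower than ImC by a ratio of 10.7 (3.34 to 54.8), with adjusted p = 0.0475 and 0.039. Both calls ended without any 1 Bone library, without ImC replicate 1, without MatC replicate 1, with the replicate block and with library size only. The first also ended without MatC replicate 2 or ImC replicate 2 and with the authors' factors, and the second without ImC replicate 3, without replicate 3 of both MatC and ImC and with no filter, with adjusted p up to 0.2 and 0.154.

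Adam12, a metalloprotease whose human form cuts IGFBP3 and IGFBP5, went the other way. It had 29.7, 33.5 and 27 CPM in Bone, 13.6, 14 and 0.283 CPM in MatC, and 0.500, 0.893 and 0.285 CPM in ImC. Every Bone library stood above every ImC library, and MatC replicate 3, with 1 read (0.283 CPM), lay just below the lowest ImC library (0.285 CPM). Adam12 rose by 5.68 ± 0.95 on the log2 scale in Bone relative to ImC (SE, adjusted p = 0.00245), a call that held in all alternatives run. It rose by 4.04 ± 0.90 in MatC relative to ImC (adjusted p = 0.0274), a call that ended in 10 alternatives, with adjusted p from 0.0517 to 0.134; they were those without Bone replicate 1, 2 or 3, MatC replicate 1 or 2, or ImC replicate 1 or 3, and those with library size only, limma-voom and only the groups compared. Adam28, whose human form cuts IGFBP3, had 0.487, 0.342 and 0.225 CPM in Bone, 1.21, 2.68 and 3.11 CPM in MatC, and 3.33, 1.84 and 6.62 CPM in ImC. It fell by 3.44 ± 0.71 in Bone relative to ImC (adjusted p = 0.00638), which held in all alternatives run. Stc2, which inhibits the pappalysins and was named after its values were seen, fell by 2.77 ± 0.85 in Bone relative to ImC (adjusted p = 0.0327). Without ImC replicate 2 its value was -1.16 (adjusted p = 0.217), and the call also ended without Bone replicate 1, 2 or 3 (-2.40, -2.88 and -3.05; 0.112, 0.0945 and 0.0777), with limma-voom (-2.44; 0.0698) and with library size only (-2.47; 0.0888).

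Of 15 tested related receptors and adaptors, 3 rose and 1 fell in Bone relative to ImC (median -0.09). In MatC relative to ImC 1 rose (median 0.21), and in Bone relative to MatC 1 rose (median -0.24). The shares of all genes called were 31.1%, 7.71% and 6.05% in the same order. Grb14, an adaptor that dampens insulin receptor signalling, had 13.0, 12.4 and 11 CPM in Bone, 27.3, 29.7 and 82.3 CPM in MatC, and 0.833, 4.62 and 0.0712 CPM in ImC. Every MatC library stood above every Bone library, and every Bone library above every ImC library. Grb14 rose by 4.59 ± 0.97 on the log2 scale in MatC and by 2.66 ± 0.90 in Bone relative to ImC (SE, adjusted p = 0.0219 and 0.046), and without ImC replicate 2 these values were 6.69 and 4.78. Without ImC replicate 1 both calls ended (4.26 and 2.38; 0.0821 and 0.124), and the second ended also without Bone replicate 1, 2 or 3 or MatC replicate 2 (0.0981, 0.102, 0.089 and 0.0591). Both ended with library size only (3.52 and 2.96; 0.0845 and 0.0718) and with only the groups compared (4.60 and 2.70; 0.0903 and 0.0667). Without MatC replicate 3 the value for MatC was 3.91. Shc2, a Shc family adaptor, rose by 4.26 ± 0.81 in Bone relative to ImC (adjusted p = 0.00456), which held in all alternatives run, and by 5.28 without ImC replicate 3.

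Grb2, which links receptors to Ras, rose by 1.37 ± 0.34 on the log2 scale in Bone relative to MatC and by 1.45 ± 0.34 relative to ImC (SE, adjusted p = 0.0443 and 0.0113). The first call ended in 9 alternatives, those without Bone replicate 1, 2 or 3 (1.37, 1.43 and 1.35), MatC replicate 1 or 3 (1.33 and 1.11) or ImC replicate 1 or 2 (1.43 and 1.37), the replicate block (1.43) and library size only (2.34), with adjusted p up to 0.147. The second ended with library size only (1.95; 0.0586). Igf2r, a receptor that clears IGF2 from the cell surface, had 148, 127 and 139 CPM in Bone, 329, 195 and 169 CPM in MatC, and 447, 430.2 and 197 CPM in ImC. It fell by 1.38 ± 0.38 in Bone relative to ImC (adjusted p = 0.0208). That call ended without Bone replicate 1, 2 or 3 (-1.42, -1.30 and -1.37; 0.0659, 0.0893 and 0.0794), ImC replicate 1 or 2 (-1.15 and -1.22; 0.0789 and 0.051), and with library size only (-0.97; 0.402).

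Of 26 tested genes of the PI3K, Akt and mTOR branch, 7 rose and 1 fell in Bone relative to ImC (median 0.20). In MatC relative to ImC 2 rose (median 0.33), and in Bone relative to MatC 1 fell (median 0.21). Over all genes 31.1%, 7.71% and 6.05% were called in these comparisons. Foxo1, a forkhead factor that Akt keeps out of the nucleus, had 105, 124 and 121 CPM in Bone, 69.4, 51.3 and 90.0 CPM in MatC, and 13.5, 14.2 and 17.4 CPM in ImC, and the 3 groups did not overlap. It rose by 2.95 ± 0.29 on the log2 scale in Bone and by 2.22 ± 0.28 in MatC relative to ImC (SE, adjusted p = 0.000201 and 0.00291). The first call held in all alternatives run, and the second ended with library size only (1.67; adjusted p = 0.106). Its relative Foxo4 was highest in MatC, with 7.80, 9.50 and 10.02 CPM in Bone, 36.3, 27.1 and 45.3 CPM in MatC, and 19.5, 12.5 and 23.7 CPM in ImC. For MatC against ImC the log2 fold change of Foxo4 was 0.96 ± 0.32 (adjusted p = 0.098), and it was not called. Foxo4 fell by 1.99 ± 0.33 in Bone relative to MatC and by 1.03 ± 0.32 relative to ImC (adjusted p = 0.00891 and 0.0354). Both calls ended without Bone replicate 1 or 2 and with library size only, where the values were -0.93 and -0.47. The second ended also without Bone replicate 3 or ImC replicate 1 or 3, without replicate 3 of both MatC and ImC, and with no filter, with adjusted p up to 0.254 for the first and 0.577 for the second.

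Rps6kb1, a kinase activated by mTOR, had 183, 202 and 209 CPM in Bone, 189, 158 and 255 CPM in MatC, and 71.9, 78.6 and 68.2 CPM in ImC. Every library of Bone and MatC stood above every ImC library. Rps6kb1 rose by 1.44 ± 0.26 on the log2 scale in Bone and by 1.46 ± 0.26 in MatC relative to ImC (SE, adjusted p = 0.00375 and 0.013). The first call held in all alternatives run, and the second ended without ImC replicate 1 (1.44; 0.0618), with only the groups compared (1.46; 0.0775) and with library size only (0.84; 0.381). Pik3r1, the main regulatory subunit of PI3K, had 98.0, 86.2 and 102 CPM in Bone, 56.3, 39.8 and 15.6 CPM in MatC, and 12.3, 27.9 and 19.4 CPM in ImC. It rose by 2.26 ± 0.45 in Bone relative to ImC (adjusted p = 0.00571), which held in all alternatives run.

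**Figure D5:**
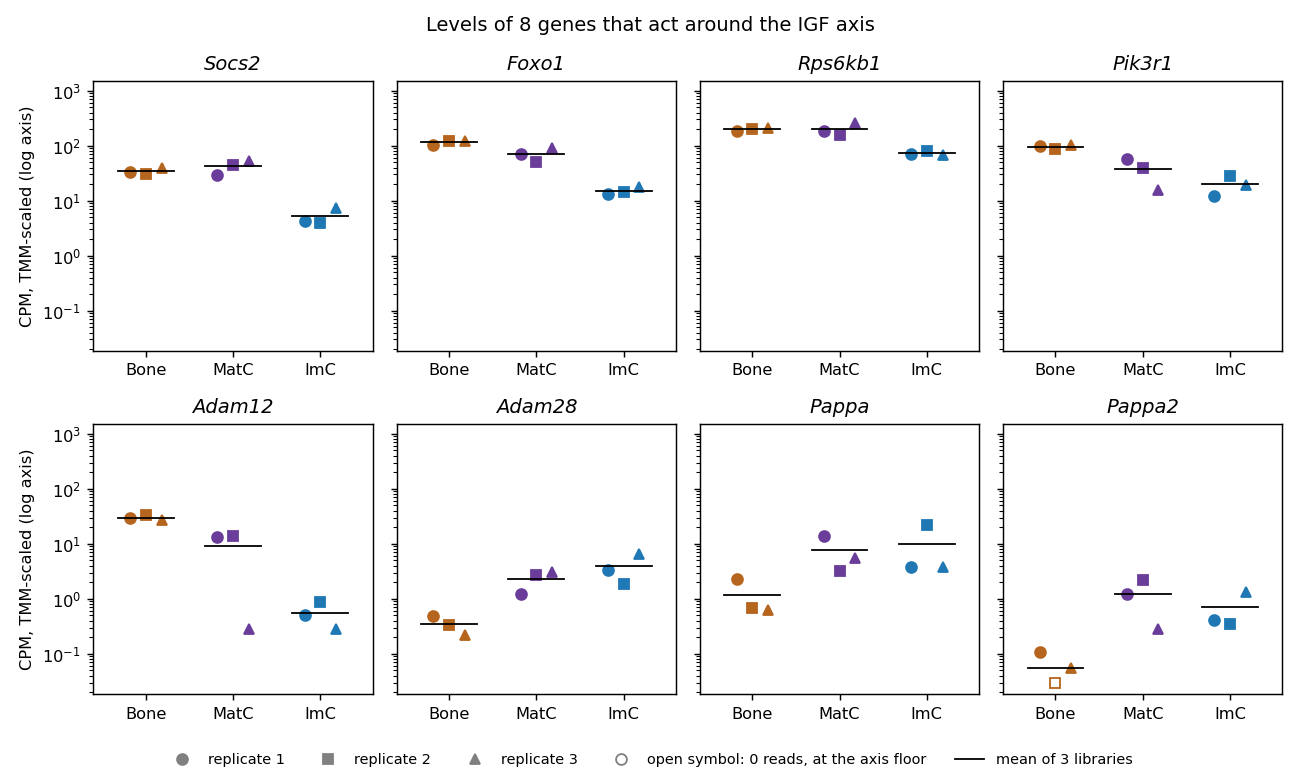
TMM-scaled CPM (log axis) of 8 genes around the IGF axis in the 9 libraries, with Bone, MatC and ImC from left to right. Socs2, Foxo1 and Rps6kb1 were higher in every Bone and MatC library than in every ImC library, and Adam28, Pappa and Pappa2 were lower in every Bone library than in every ImC library.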

How the data were processed

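Bone, MatC and ImC libraries (3 each, grouped by title) were made, per the labels' protocols, from RNA amplified for 1 round with a MessageAmp II kit, and sequenced from an Illumina TruSeq kit that does not mark strand. The deposited raw table holds the authors' counts per gene symbol, unnormalized; the submitters' processing notes name Trimmomatic 0.30, TopHat2, Bowtie2, HTSeq and edgeR with mm10, without role or order. The authors' second deposited table is a score, normalized counts rounded to whole numbers, and served only to read back 1 factor per library from genes above 2000 reads. All columns were mapped to samples.

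edgeR 4.0.16 (R 4.3.3) fitted all 9 libraries with a mean per group, after filterByExpr with a minimum count of 10 and TMM scaling; p-values were adjusted by Benjamini-Hochberg over 14257 genes, and an adjusted p under 0.05 was called. The SE of a log2 fold change was derived from its F statistic, as its size divided by root F. The test was run on simulated data with known changes, of which it called few of the smallest. Alternatives were other scalings, no filter, DESeq2 1.42.0, limma-voom 3.58.1, 2-group fits, the replicate block and leaving out libraries. Likeness is Pearson's r of log2 CPM (prior count 2) over genes averaging at least 10 CPM, with the 2 highest named per member. Pathway genes were named where called, up to 4 per list by smallest p, from the 4 lists. Named outside this rule were Stc2 (beyond the 4), Ghr and Socs3 (not called) and Igfbp1 (not tested). In the lists 1 symbol of 64 (Rack1) was not matched. Coordinates and lengths are from GENCODE M21. The members and lists were chosen with earlier results of these data known.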

Additional observations from a re-analysis of the deposited data

How the results depend on the processing

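Counts of called genes moved by over 1.5 times in several settings. For MatC against ImC, 2 members and 1099 genes were called; with library size only the counts were 1 and 358, with no filter on low counts 4 and 1690, with DESeq2 4 and 2229, and with only the groups compared 0 and 205. With limma-voom 1 member was called. With the replicate block 725 genes were called, and without replicate 3 of both MatC and ImC 1908. Leaving out 1 library gave 0 to 3 members and 355 to 1240 genes. For Bone against MatC, 1 member and 863 genes were called; library size only gave 0 and 297, no filter 2 and 1504, DESeq2 2 and 1964, and leaving out replicate 3 of both MatC and ImC 2 and 1605. limma-voom and only these groups gave 2 members each, and the replicate block 0. Leaving out 1 library gave 0 to 2 members and 167 to 1702 genes. For Bone against ImC, 4 members and 4432 genes were called; library size only gave 2073 genes, limma-voom 2 members, and leaving out 1 library 0 to 4 members and 2343 to 5408 genes. Genes of the 4 pathway lists were called in 5 cases for MatC against ImC, 3 for Bone against MatC and 20 for Bone against ImC, and over all settings in 1 to 12, 0 to 10 and 9 to 23. The cause of these moves was not tested.

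The share of higher calls among all genes was 70.2% for MatC against ImC and 53.4% with library size only and 81% without MatC replicate 1; for Bone against MatC it was 22.5%, and 40.1% with library size only, 40% with limma-voom, 36.7% in the 2-group fit, 35.1% without replicate 3 of both MatC and ImC, 34.4% with DESeq2, and 10.2%, 8.38% and 10.5% without Bone replicate 1, 2 or 3; for Bone against ImC it was 46%, and 59% with library size only. Library size only shifted the median of all genes to -0.51 for MatC against ImC, 0.95 for Bone against MatC and 0.46 for Bone against ImC.

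Of 399 recomputed log2 fold changes of the members, 338 kept their direction and side of the threshold, 36 lost and 15 gained a call, and 10 changed sign, none of them called. With library size only these were Igf1r (-0.40) for MatC against ImC and Igfbp4 (0.024) for Bone against MatC, and without replicate 3 of both MatC and ImC Igfbp4 (-0.013) for Bone against ImC. The other 7 came from leaving out 1 library. For MatC against ImC the values then ran from -0.033 to 1.51 for Igfbp2 and from -0.0016 to 1.31 for Igfbp4, both lowest without MatC replicate 1. For Bone against MatC they ran from -2.23 to 0.18 for Igfbp3, highest without MatC replicate 2, and from -1.06 to 0.17 for Igfbp4, highest without MatC replicate 1. For Bone against ImC they ran from -1.74 to 0.21 for Igfbp2, highest without ImC replicate 2, and from -0.068 to 0.76 for Igfbp4, below 0 without ImC replicate 1 (-0.068) or 3 (-0.039). Using the longest transcript as gene length exchanged the ranks of Igf1r and Igfbp7 by mean in MatC and some ranks within single libraries, but not which gene stood first in any library.

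No pairing of libraries by equal replicate number was seen, though so few libraries per group cannot show that none existed. Deviations from the group means correlated at 0.228, -0.0433 and 0.24 for MatC with ImC, -0.0698, -0.0871 and -0.131 for Bone with MatC, and 0.0992, 0.0401 and -0.0111 for Bone with ImC, and 6 of 18 best matches had the same number. With the replicate block 2 members were called for MatC against ImC, 0 for Bone against MatC and 3 for Bone against ImC. Low read counts limited Igfbp6, Pappa2 and Igfals. Other called genes had low counts in 1 of the groups compared. Igfbp7 had 13, 6 and 19 reads in Bone, and Adam28 had 9, 4 and 4. In ImC Shc2 had 4, 10 and 25 reads, Adam12 6, 18 and 4, and Grb14 10, 93 and 1. The ImC levels of Igf1 and Igfbp3 rested on the reads given above. Low counts also limited MatC replicate 3, where mitochondrial genes took 82.3% of 10763303 counts and 3 reads equal 0.849 CPM.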
